A study of Homo sapiens and Mus musculus with 27 samples.

Results

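The genes described here are AXL, MERTK and TYRO3, which encode the TAM family of receptor tyrosine kinases, and GAS6 and PROS1, which encode their ligands. Members were the rows whose gene name equals one of these 5 symbols, ignoring letter case. All 5 were found in each table, among 59453 human and 55367 mouse gene names. AXL was selected on its log2 ratio in LM2 cells with caMKL1 against control LM2 cells, where its level was lower, and the others were added as its family. All values of the members in that comparison, and those of AXL in LM2 caMKL1 against MKL1, are therefore given as descriptions without a test.

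RNA was sequenced from 27 libraries, in 9 groups of 3 replicates. LM2 is a human breast cancer line, known as a lung-metastatic derivative of MDA-MB-231, and 4T1 is a mouse mammary carcinoma line. Control, MKL1-overexpressing and caMKL1-overexpressing cells of both lines were compared by polyA-selected RNA. MKL1, now named MRTFA, is an actin-sensing coactivator of the transcription factor SRF. The labels do not spell out the "ca" of caMKL1 or give the construct's promoter, and they do not say whether a group was 1 clone or a pool. The genotype labels are WT for the control and MKL1 groups. For the caMKL1 groups they run caMKL1, caMKL2 and caMKL3, while titles and treatments give caMKL1, so these were taken as caMKL1 replicates. In a further experiment, WT LM2 cells that were negative, low or high in LifeAct were compared by RNA depleted of ribosomal RNA. LifeAct is an actin-binding peptide used to label filaments. The negative group is the labelled control. Nothing in the labels says that replicates were separate cultures, so the p-values measure the spread between these libraries, which may be technical.

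TAM receptors sit in the plasma membrane and are activated by GAS6 or protein S, the product of PROS1. These vitamin K-dependent ligands bridge the receptors to phosphatidylserine on dying cells or on membrane fragments. MERTK and AXL are best known in macrophages for the uptake of dying cells and for restraint of innate immune signals. In breast cancer cells AXL is known for its association with mesenchymal traits and invasion.

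In the human annotation (GRCh38) AXL lies at chr19:41219223-41261766 on the plus strand, MERTK at chr2:111898607-112029561 (plus) and TYRO3 at chr15:41557675-41583589 (plus). GAS6 lies at chr13:113820549-113864076 (minus) and PROS1 at chr3:93873051-93980003 (minus). In the mouse annotation (GRCm38) Axl lies at chr7:25757273-25788705 (minus), Mertk at chr2:128698956-128802894 (plus) and Tyro3 at chr2:119797733-119818104 (plus). Gas6 lies at chr8:13465374-13494490 (minus) and Pros1 at chr16:62854307-62929346 (plus). Counts cover all exons of a gene, UTRs included. GAS6-AS1 overlaps GAS6 on the other strand and counting used no strand option, so reads of the pair cannot be told apart. TYRO3P and PROS2P are near-identical copies of TYRO3 and PROS1, which makes those values less certain. TYRO3P had 57 counts over the 9 LM2 libraries and 730 over the 9 LifeAct libraries, against 3457 and 3965 for TYRO3.

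Totals ran from 22147429 to 32147377 counts in LM2, from 15581289 to 23678322 in LifeAct and from 21896459 to 29370432 in 4T1. MRTFA RNA rose from a mean of 10.8 CPM in LM2 control to 162 with MKL1 and 218 with caMKL1. CPM are counts scaled to a common library size, with TMM scaling within an experiment. Mouse Mrtfa rose from 39.2 to 2145 and 624 CPM. Pairs of replicates were compared by the mean chi-square per gene of their counts, which was 2.22 to 7.445 in LM2 control. In LM2 caMKL1 replicate 1 stood apart from 2 and 3 (44.6 and 48.4, against 2.96 between 2 and 3). All 3 LM2 MKL1 replicates were apart, replicate 1 the most (47.9 and 34.8, against 20.2 between 2 and 3). The mitochondrial share was 7.76%, 13.4% and 13.6% in caMKL1 replicates 1 to 3. In MKL1 it was 6.18%, 9.87% and 7.11%, highest in replicate 2. KRT8, KRT18, CD44 and VIM, with Cdh1 in 4T1, carried the carcinoma list, whose summed level was 2291 to 8030 CPM in LM2, 2546 to 3055 in LifeAct and 4177 to 6618 in 4T1. CDH1 was below 1 CPM in every LM2 library. The 13 macrophage and myeloid markers summed to 2.43 to 6.58 CPM in LM2, 13.7 to 20.4 in LifeAct and 3.80 to 8.99 in 4T1, and TYROBP had 0 counts in all 27 libraries. Fibroblast markers summed to 8.84 to 20.9, 24.0 to 38.5 and 30.9 to 39.4 CPM in the same order.

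The promoters of the 3 receptors are shown because these genes moved in different directions in the same cells. The RefSeq table (GRCh38.p14) gave 7 windows for the 5 human members, each from 250 bases before to 50 after a gene's start in that table. The RefSeq starts of TYRO3 and PROS1 and the downstream start of AXL lie inside the gene spans given above, so these windows are not at the outer start of those spans. Capitals mark the matches to 4 searched patterns on both strands, namely the GC box (GGGCGG), AP-1 (TGANTCA), TEAD (GGAATG) and the SRF-binding CArG box. No 2 matches overlap. The first line is the upstream AXL window at chr19:41218973-41219272, the second the MERTK window at chr2:111898357-111898656, and the third the upstream TYRO3 window at chr15:41558962-41559261, all on the plus strand, 5′ to 3′.
AXL: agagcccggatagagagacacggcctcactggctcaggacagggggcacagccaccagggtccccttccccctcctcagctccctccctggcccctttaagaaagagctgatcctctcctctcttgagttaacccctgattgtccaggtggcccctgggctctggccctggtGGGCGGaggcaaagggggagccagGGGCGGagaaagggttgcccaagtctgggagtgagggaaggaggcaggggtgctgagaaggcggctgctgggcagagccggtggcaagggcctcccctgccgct
MERTK: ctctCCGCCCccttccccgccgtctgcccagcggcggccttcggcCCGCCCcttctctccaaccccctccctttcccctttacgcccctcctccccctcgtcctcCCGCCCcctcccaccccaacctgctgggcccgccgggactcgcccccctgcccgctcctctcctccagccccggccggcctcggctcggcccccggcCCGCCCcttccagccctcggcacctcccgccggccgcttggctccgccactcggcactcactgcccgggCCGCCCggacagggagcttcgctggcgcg
TYRO3: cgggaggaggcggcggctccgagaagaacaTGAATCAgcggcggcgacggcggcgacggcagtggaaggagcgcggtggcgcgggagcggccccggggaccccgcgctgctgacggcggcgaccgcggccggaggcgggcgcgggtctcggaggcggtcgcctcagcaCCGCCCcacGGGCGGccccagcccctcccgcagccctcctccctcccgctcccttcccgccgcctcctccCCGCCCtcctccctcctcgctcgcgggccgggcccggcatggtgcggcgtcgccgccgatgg
The AXL window holds 2 GC boxes, at bases 173 to 178 and 197 to 202 counted from its first base. MERTK holds 5, and TYRO3 holds 3 and 1 AP-1 match at bases 31 to 37. GAS6 and PROS1 hold 3 and 2 GC boxes. The downstream AXL window holds 1 TEAD match, and no member window holds the letters of a CArG box. Among all 35116 windows of the table, 45.0% hold a GC box, 14.03% TEAD, 7.71% AP-1 and 1.29% a CArG box. GC content was 66.0% in the AXL window, 78.3% in MERTK and 80.3% in TYRO3. A match here is a description of letters and not of a bound site.

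AXL was the receptor with the highest RNA level in this family in all 9 groups. On the length-normalised scale (TPM), its mean level was 818 ± 11.2 (SD, n = 3) in 4T1 MKL1 and 760.3 ± 35.9 in 4T1 control. It was 685 ± 26.96 in LifeAct high, 644.9 ± 4.64 in LifeAct low and 553 ± 57.1 in LM2 control. LifeAct negative (452 ± 9.78) and LM2 MKL1 (439.5 ± 30.4) followed, and 4T1 caMKL1 (311 ± 11.1) and LM2 caMKL1 (84.0 ± 26.2) were lowest. LifeAct negative and LM2 MKL1 were the neighbours in this order whose libraries overlapped. All other neighbours were apart. The 3 experiments were scaled separately and differ in species or RNA selection, so the order across them is of levels without a test.

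**Figure D1:**
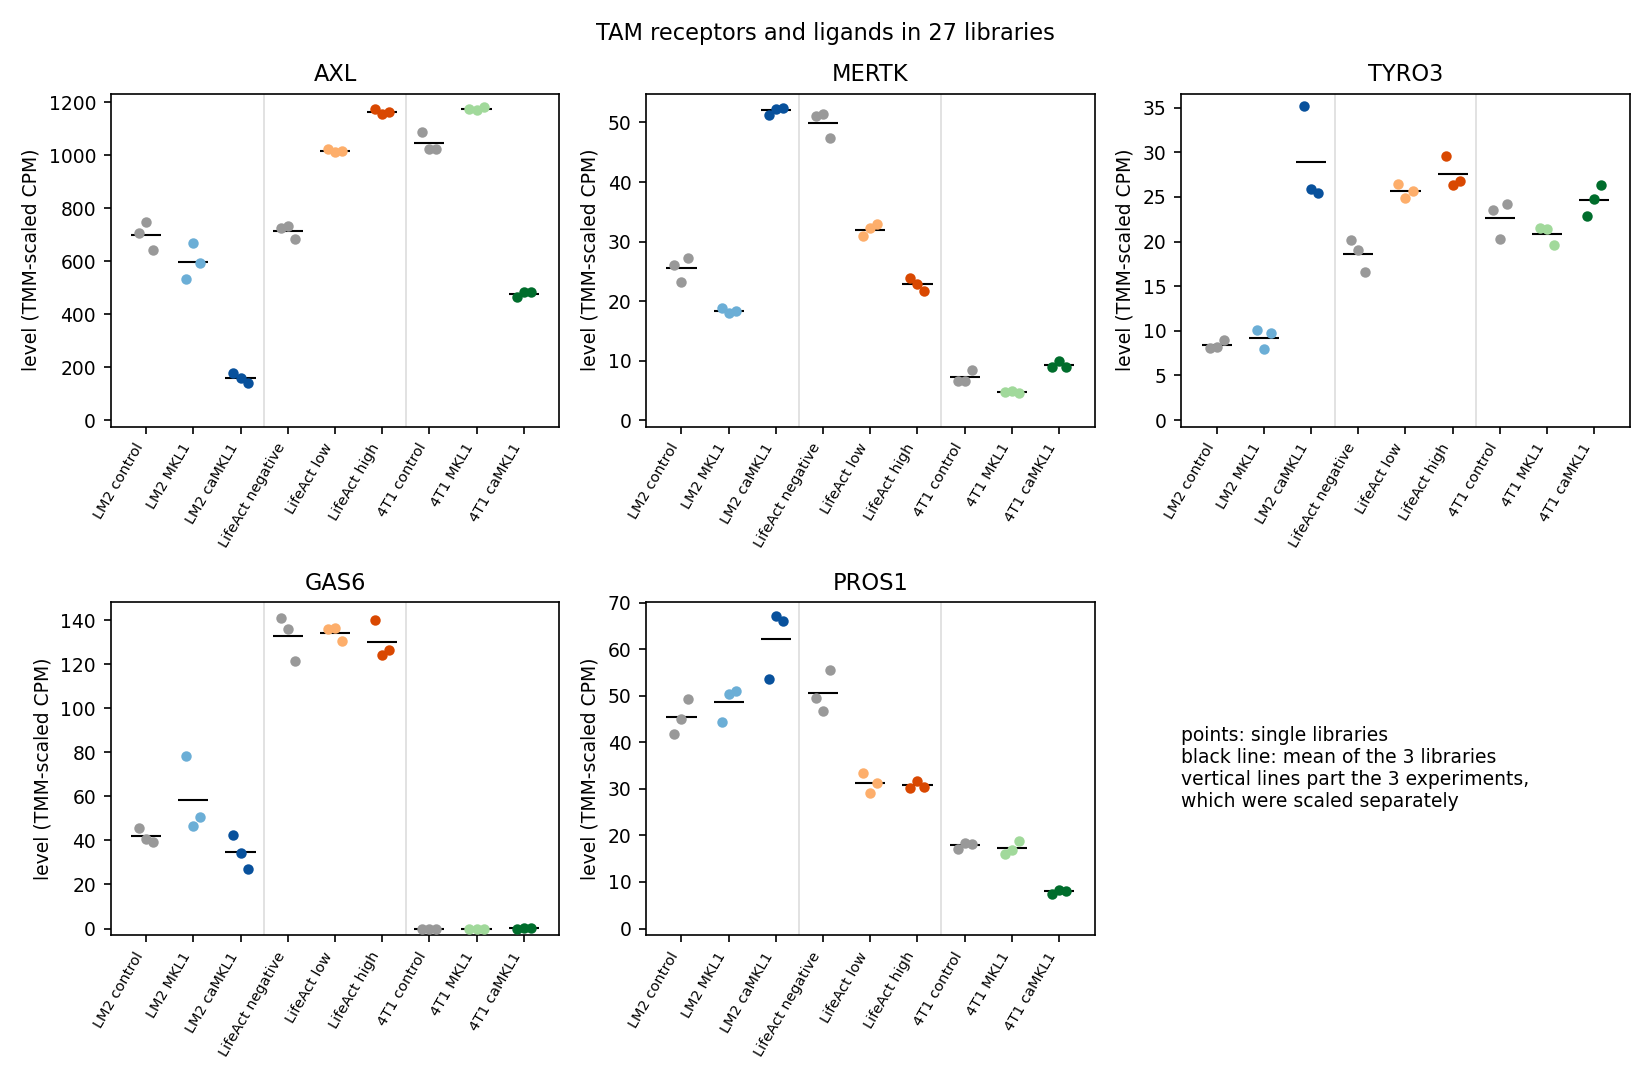
Level of each member (y axis, TMM-scaled CPM, linear from 0) in every library of the 9 groups (x axis), with the mean of 3 libraries as a black line. Within LM2, AXL is lowest with caMKL1 (138.5 to 177 CPM) and MERTK is highest (51.3 to 52.5 CPM), while Gas6 stays at the floor in 4T1.

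AXL, the receptor most tied to invasive breast cancer cells, stood at 705, 749.6 and 643 CPM in LM2 control replicates 1 to 3. It stood at 533, 670.0 and 591 CPM with MKL1, and at 177, 158 and 138.5 CPM with caMKL1. The caMKL1 libraries lay far below all 6 others, while control and MKL1 libraries overlapped. The caMKL1 mean was 4.43-fold lower than control (log2 ratio -2.15 ± 0.12, SE). It was 3.79-fold lower than with MKL1 (log2 ratio -1.92 ± 0.12). Without replicate 1 of MKL1 and of caMKL1 these log2 ratios were -2.24 and -2.09. With MKL1 itself the ratio to control was -0.23 ± 0.11 and did not pass edgeR's quasi-likelihood test (adjusted p = 0.214), a comparison that shares the control libraries by which AXL was chosen. In bulk RNA, fewer cells expressing a gene and less RNA per cell cannot be told apart.

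In LM2 cells grouped by their LifeAct expression, AXL was higher with LifeAct. It stood at 727, 733 and 683 CPM in the negative libraries, at 1022, 1012 and 1017 in low and at 1176, 1156 and 1163 in high. The 3 groups were stepwise higher and did not overlap. AXL rose 1.42-fold in low (log2 ratio 0.51 ± 0.035, edgeR adjusted p = 7.9e-13) and 1.63-fold in high against negative (0.71 ± 0.035, adjusted p = 1.2e-16). High also exceeded low, by 1.15-fold (0.20 ± 0.035, adjusted p = 2.8e-05). PECAM1, an endothelial marker, moved the opposite way across these groups, from 90.6 to 93.9 CPM in negative to 29.4 to 30.8 in low and 6.57 to 8.20 in high. KDR, another endothelial marker, went the same way as AXL, at means of 2.38, 3.43 and 4.94 CPM. VWF went down, at 3.36, 2.54 and 2.03 CPM in the same order. PECAM1 carried most of the summed endothelial level in negative and low. The 6 endothelial markers summed to 96.9 to 100.4 CPM in negative, 35.5 to 37.5 in low and 14.3 to 15.9 in high, with CDH5 below 1 CPM in all 9 libraries. Of the 3 tested, 1 was higher and 1 lower in low, against 26.0% and 23.6% of all genes. In high 1 was higher and 2 lower, against 36.0% and 35.2%. The part of PECAM1 in the AXL result was not tested.

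In mouse 4T1 cells, Axl stood at 1089, 1022 and 1025 CPM in control, at 1173, 1170 and 1181 with MKL1, and at 466, 483 and 485 with caMKL1. The caMKL1 libraries were lowest and the MKL1 libraries highest, with no overlap among the 3 groups. Axl fell 2.19-fold with caMKL1 (log2 ratio -1.13 ± 0.028, edgeR adjusted p = 9.8e-21). With MKL1 it rose 1.12-fold (0.17 ± 0.028, adjusted p = 3.4e-05). The libraries of this line were not used to choose AXL. Side by side, the caMKL1 ratio was -2.15 in LM2 and -1.13 in 4T1, and their difference was not tested.

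The MKL1 response itself was compared between the lines, over 13113 symbols matched between human and mouse. The response of AXL in 4T1 exceeded that in LM2 by 0.37 ± 0.12 on the log2 scale (edgeR interaction, adjusted p = 0.0343). Of the 4 members tested, 1 passed, against 19.9% of all symbols in either direction. The call was lost in 8 of 12 fits that each left out 1 library (0.28 to 0.48, adjusted p from 0.00516 to 0.0969). These included the fit without LM2 MKL1 replicate 1, the furthest apart in its group (0.28, adjusted p = 0.0582). The others were those without LM2 control replicate 1 or 2, 4T1 control replicate 2 or 3, or any of the 3 4T1 MKL1 replicates. MERTK (-0.16, adjusted p = 0.475), PROS1 (-0.18, adjusted p = 0.433) and TYRO3 (-0.29, adjusted p = 0.260) did not pass. The test shares the LM2 control libraries by which AXL was chosen.

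Calls among the members were read against the share of all tested genes called at an adjusted p under 0.05. In LM2 MKL1 against control, 0 of 5 members were higher and 1 (MERTK) was lower, against 7.25% and 4.74% of all genes tested. These shares rest on 2265 called genes, a number that fell to 1118, 1248 and 1281 without control replicate 3, 2 or 1. In LM2 caMKL1 against control, the comparison that chose AXL, 31.9% of genes were called higher and 33.0% lower, and nothing is read from that. LifeAct low called 2 of 5 higher (AXL, TYRO3) and 2 lower (MERTK, PROS1), against 26.0% and 23.6%. The same 4 genes were called in the same directions in LifeAct high, against 36.0% and 35.2%. In 4T1 MKL1, 2 of 4 tested members were called in either direction, Axl higher and Mertk lower, against 34.3% of genes (3144 higher and 2449 lower of 16297). In 4T1 caMKL1, 1 was higher (Mertk) and 2 were lower (Axl, Pros1), against 36.2% and 35.8%. Between treated groups, in either direction, LM2 caMKL1 against MKL1 called 4 of 4 tested members (64.5% of genes). LifeAct high against low called 2 of 5 (50.3%), and 4T1 caMKL1 against MKL1 called 4 of 4 (66.6%).

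**Figure D2:**
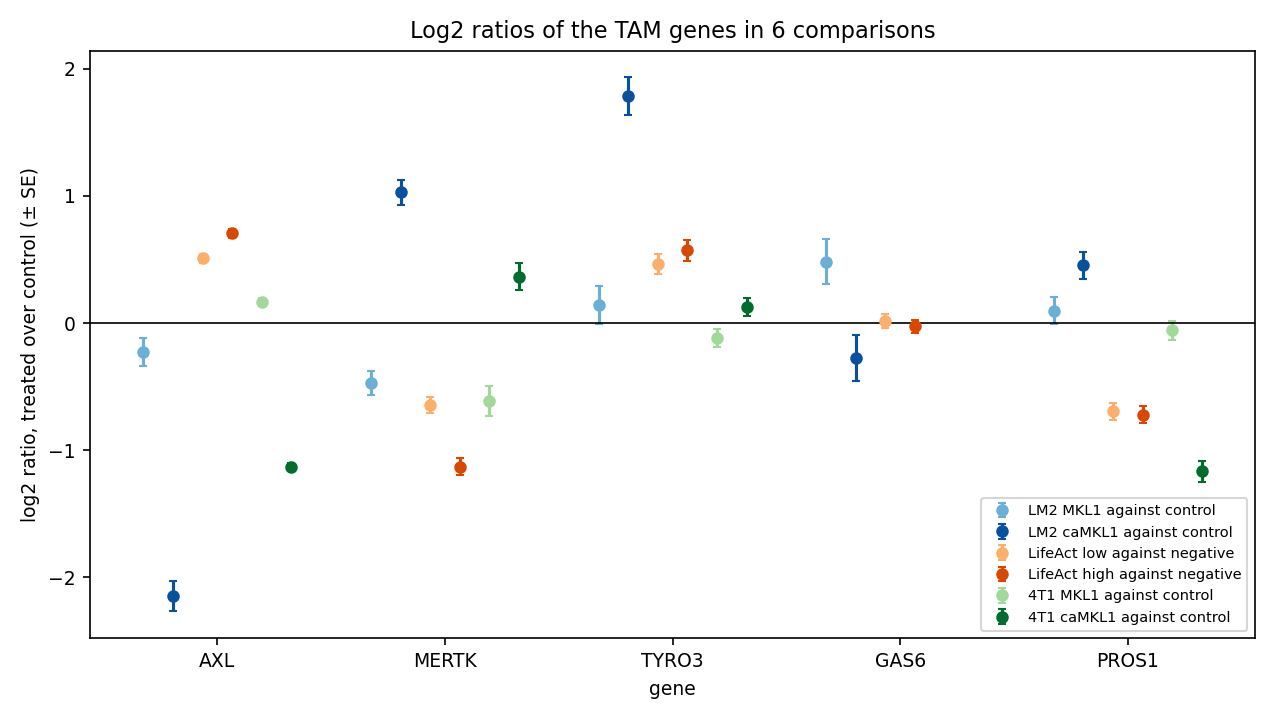
Log2 ratio of each member (x axis) against its control or negative group (y axis, ± SE) in 6 comparisons, shown by colour; the LM2 caMKL1 points are descriptions only, and GAS6 was not tested in 4T1. AXL has its lowest ratio with caMKL1 (-2.15 in LM2, -1.13 in 4T1), and MERTK has ratios above 0 in the caMKL1 groups and below 0 in the other 4.

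MERTK, the family's main receptor for uptake of dying cells in macrophages, had log2 ratios opposite in sign to those of AXL in 5 of the 6 comparisons with control or negative. In LM2 it stood at 26.1, 23.2 and 27.3 CPM in control, at 18.9, 17.9 and 18.4 with MKL1, and at 51.3, 52.3 and 52.5 with caMKL1. No groups overlapped, with MKL1 lowest and caMKL1 highest. MERTK fell 1.39-fold with MKL1 (log2 ratio -0.47 ± 0.098, edgeR adjusted p = 0.00524). With caMKL1 it was 2.04-fold above control (1.03 ± 0.096, no test) and 2.83-fold above MKL1 (1.499 ± 0.098, adjusted p = 2.0e-09).

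Across LifeAct groups MERTK stepped down as AXL stepped up. It stood at 51.0, 51.5 and 47.4 CPM in negative, at 31.0, 32.2 and 32.9 in low and at 23.9, 22.9 and 21.6 in high. The 3 groups did not overlap. MERTK fell 1.56-fold in low (log2 ratio -0.64 ± 0.063, edgeR adjusted p = 1.3e-09) and 2.18-fold in high (-1.13 ± 0.066, adjusted p = 4.7e-15). High was below low by 1.40-fold (-0.49 ± 0.068, adjusted p = 6.6e-07). PECAM1 and CSF1R, a macrophage receptor gene, were lower in high as well, at a mean of 7.47 against 92.5 CPM and 3.32 against 7.43 CPM. PTPRC, the pan-leukocyte marker, averaged 0.494 CPM in high and 2.39 in negative, and CD14 averaged 1.839 and 4.599 CPM. ADGRE1, ITGAM, MRC1 and CD163, of the same myeloid list, went the other way. Their means were 5.816, 1.577, 0.9119 and 0.4094 CPM in high, against 4.254, 0.1048, 0.1012 and 0 in negative. The 13 myeloid markers summed to 17.9 to 20.4 CPM in negative, 14.06 to 14.99 in low and 13.7 to 16.5 in high. Of 6 tested, 1 was higher and 2 lower in low, against 26.0% and 23.6% of all genes. In high 3 were higher and 3 lower, against 36.0% and 35.2%. Their part in the MERTK result was not tested.

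Mouse Mertk was the receptor of this family with the lowest TPM in 4T1. It stood at 6.58, 6.62 and 8.44 CPM in control, at 4.70, 4.79 and 4.61 with MKL1 and at 8.85, 9.92 and 8.94 with caMKL1. MKL1 libraries lay below and caMKL1 libraries above all controls. Mertk fell 1.53-fold with MKL1 (log2 ratio -0.61 ± 0.12, edgeR adjusted p = 2.5e-04). It rose 1.29-fold with caMKL1 (0.36 ± 0.11, adjusted p = 0.00384), a call that was lost when libraries were scaled by their totals (0.18, adjusted p = 0.127). Mertk with caMKL1 was 1.97-fold above MKL1 (0.98 ± 0.12, adjusted p = 8.6e-08).

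TYRO3, the third receptor and the one best known in the nervous system, was the receptor with the lowest TPM in LM2. It stood at 8.08, 8.16 and 8.94 CPM in control, at 10.1, 7.93 and 9.73 with MKL1 and at 35.2, 25.9 and 25.5 with caMKL1. Control and MKL1 overlapped, and every caMKL1 library was above both, replicate 1 the most. With caMKL1 TYRO3 was 3.44-fold above control (log2 ratio 1.78 ± 0.15, no test) and 3.12-fold above MKL1 (1.64 ± 0.15, edgeR adjusted p = 8.7e-08). Its ratio with MKL1 to control was 0.14 ± 0.15 (adjusted p = 0.597).

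TYRO3 rose with LifeAct, at 20.2, 19.0 and 16.6 CPM in negative, 26.4, 24.9 and 25.7 in low and 29.6, 26.3 and 26.8 in high. Both LifeAct groups were above all negative libraries and overlapped each other. It rose 1.38-fold in low (log2 ratio 0.47 ± 0.081, edgeR adjusted p = 1.9e-05) and 1.49-fold in high (0.57 ± 0.080, adjusted p = 3.3e-07). TYRO3P, its near-identical copy, went the other way in high, from 5.52 to 2.93 CPM (adjusted p = 7.7e-06).

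In 4T1, Tyro3 stood at 23.6, 20.3 and 24.2 CPM in control, at 21.5, 21.4 and 19.6 with MKL1 and at 22.8, 24.8 and 26.3 with caMKL1. Treated and control libraries overlapped in both comparisons. Neither MKL1 (log2 ratio -0.12 ± 0.074, edgeR adjusted p = 0.246) nor caMKL1 (0.13 ± 0.072, adjusted p = 0.122) passed the test. Without control replicate 3 the caMKL1 ratio was 0.18 and passed (adjusted p = 0.0490). caMKL1 exceeded MKL1 by 0.24 ± 0.074 (adjusted p = 0.00618), which was lost when libraries were scaled by their totals (0.13, adjusted p = 0.140).

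GAS6, the ligand that binds all 3 receptors, stood at 45.7, 40.6 and 39.4 CPM in LM2 control, at 78.5, 46.4 and 50.6 with MKL1 and at 42.5, 34.2 and 27.2 with caMKL1. MKL1 replicate 1 was far above the rest, and the MKL1 libraries did not overlap control. The MKL1 ratio to control was 0.48 ± 0.18 on the log2 scale and did not pass (edgeR adjusted p = 0.0923). With no filter on low counts it was 0.53 and passed (adjusted p = 2.1e-04). It was 0.21 without that replicate (adjusted p = 0.405) and 0.62 without replicate 2, which passed (adjusted p = 0.0375). With caMKL1 the ratio to control was -0.27 ± 0.18 (no test) and GAS6 was 1.69-fold below MKL1 (-0.75 ± 0.18, adjusted p = 0.00166). GAS6-AS1 stood at 3.56, 3.42 and 2.66 CPM as means of the 3 LM2 groups.

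In the LifeAct experiment GAS6 stood at 141, 136 and 121 CPM in negative, 136, 136.5 and 131 in low and 140.1, 124.5 and 127 in high. These levels are above those in the LM2 experiment, but the experiments were scaled separately and differ in RNA selection. That difference was not tested. All 3 LifeAct groups overlapped. The log2 ratios to negative were 0.02 ± 0.053 in low and -0.02 ± 0.053 in high, with edgeR adjusted p of 0.833 and 0.683. GAS6-DT, which starts beside GAS6 on the other strand, rose from 2.41 to 7.26 CPM in high (adjusted p = 2.3e-09). Mouse Gas6 had 3 counts in all over the 9 4T1 libraries, with 7 libraries at 0. A level of 3 counts corresponds to 0.0963 to 0.137 CPM in these libraries, so Gas6 was not detectable above that and was not tested.

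PROS1, which encodes protein S, stood at 41.9, 45.0 and 49.4 CPM in LM2 control, at 44.4, 50.4 and 51.1 with MKL1 and at 53.7, 67.2 and 66.1 with caMKL1. Control and MKL1 overlapped, and caMKL1 libraries were above both. The caMKL1 ratio to control was 0.45 ± 0.11 on the log2 scale (no test). That ratio was 0.04 when libraries were scaled by their totals, and on the TPM scale the means were 34.9 in control and 31.4 with caMKL1. Against MKL1 it was 0.36 ± 0.11 (edgeR adjusted p = 0.00865), lost with library totals (0.02, adjusted p = 0.900). MKL1 against control gave 0.10 ± 0.11 (adjusted p = 0.609).

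PROS1 was lower in both LifeAct groups. It stood at 49.5, 46.8 and 55.5 CPM in negative, at 33.4, 29.2 and 31.2 in low and at 30.2, 31.7 and 30.4 in high. Every negative library was above the other 6, and low and high overlapped. PROS1 fell 1.62-fold in low (log2 ratio -0.69 ± 0.068, edgeR adjusted p = 1.4e-09) and 1.65-fold in high (-0.72 ± 0.069, adjusted p = 2.4e-10). High against low gave -0.03 ± 0.071 (adjusted p = 0.782).

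Mouse Pros1 stood at 17.1, 18.4 and 18.2 CPM in 4T1 control, at 15.97, 16.9 and 18.9 with MKL1 and at 7.43, 8.30 and 8.16 with caMKL1. The caMKL1 libraries were far below the other 6. Pros1 fell 2.24-fold with caMKL1 (log2 ratio -1.17 ± 0.083, edgeR adjusted p = 8.0e-12), and the MKL1 ratio was -0.06 ± 0.075 (adjusted p = 0.626). With Gas6 at the floor, Pros1 made up nearly all the TAM ligand RNA of this line, at a mean of 16.02 TPM in control and 6.38 with caMKL1.

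The make-up of the receptor RNA was read per length, as each receptor's share of the summed TPM of AXL, MERTK and TYRO3. AXL made up 95.5% ± 0.66 (SD, n = 3) in LM2 control, 95.9% ± 0.60 with MKL1 and 68.5% ± 2.19 with caMKL1. MERTK made up 25.6% and TYRO3 5.96% of the receptor RNA with caMKL1, against 3.94% and 0.55% in control. The AXL fall on which AXL was chosen enters these shares, so nothing is read from their rise. MERTK itself stood at 22.6 TPM in control and 30.6 with caMKL1, and TYRO3 at 3.16 and 7.41. The summed level of the 3 receptors was 579 TPM in control and 122 with caMKL1. In 4T1 the AXL share was 97.5% ± 0.26 in control, 98.1% ± 0.087 with MKL1 and 94.0% ± 0.19 with caMKL1. Across LifeAct groups it was 91.7% ± 0.11 in negative, 95.5% ± 0.095 in low and 96.8% ± 0.14 in high. Of the human ligand RNA, GAS6 made up 44.7% ± 3.90 in LM2 control, 50.6% ± 8.85 with MKL1 and 32.8% ± 7.40 with caMKL1. MKL1 replicate 1 stood at 60.8%, against 44.6% and 46.4% in replicates 2 and 3. In LifeAct the GAS6 share was 69.7% ± 3.43 in negative, 79.0% ± 1.19 in low and 78.7% ± 1.39 in high.

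**Figure D3:**
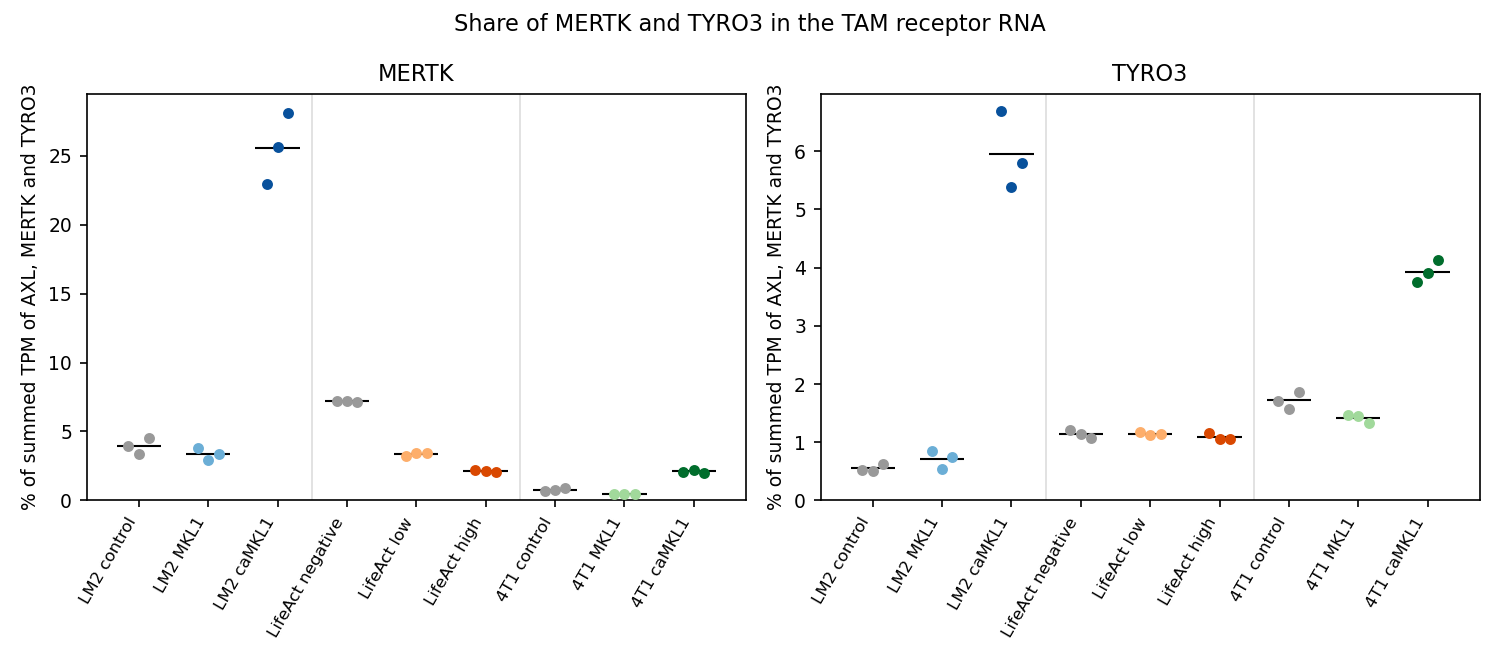
Share of MERTK (left) and TYRO3 (right) in the summed TPM of AXL, MERTK and TYRO3 (y axis, percent, from 0) for each library of the 9 groups (x axis), with group means as black lines. LM2 caMKL1 has the highest shares, with means of 25.6% for MERTK and 5.96% for TYRO3.

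Among 58 receptor tyrosine kinase genes, AXL had the highest mean TPM in 8 of the 9 groups. It made up 42.3% of their summed TPM in LM2 control and 15.7% with caMKL1, where MET, the hepatocyte growth factor receptor gene, stood first at 154 TPM. The lower LM2 share contains the fall on which AXL was chosen. In 4T1 its share was 35.2% in control and 22.6% with caMKL1, and in LifeAct it went from 28.2% in negative to 42.5% in high. Among the 24 such genes averaging at least 5 CPM over the LM2 libraries, AXL had the lowest log2 ratio with caMKL1, the ratio on which it was chosen, with EGFR 3rd lowest at -1.64. FGFR2 and ERBB4 are among the 24 through their caMKL1 libraries alone, at means of 0.078 and 0.47 CPM in control and 20.3 and 50.5 with caMKL1. Among 28 in 4T1 it was 5th lowest with caMKL1, where Fgfr2 was lowest at -2.84 and Epha2 stood at -1.75. Among 30 in LifeAct it was 27th from the lowest in high, where DDR1, a collagen receptor gene, stood at -1.93. STYK1 and DDR2, which ranked above AXL there, averaged under 5 CPM in negative (2.30 and 4.655) and 13.5 and 9.83 CPM in high. MERTK was 3rd lowest of 24 with LM2 MKL1 and 2nd lowest of 28 with 4T1 MKL1.

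**Figure D4:**
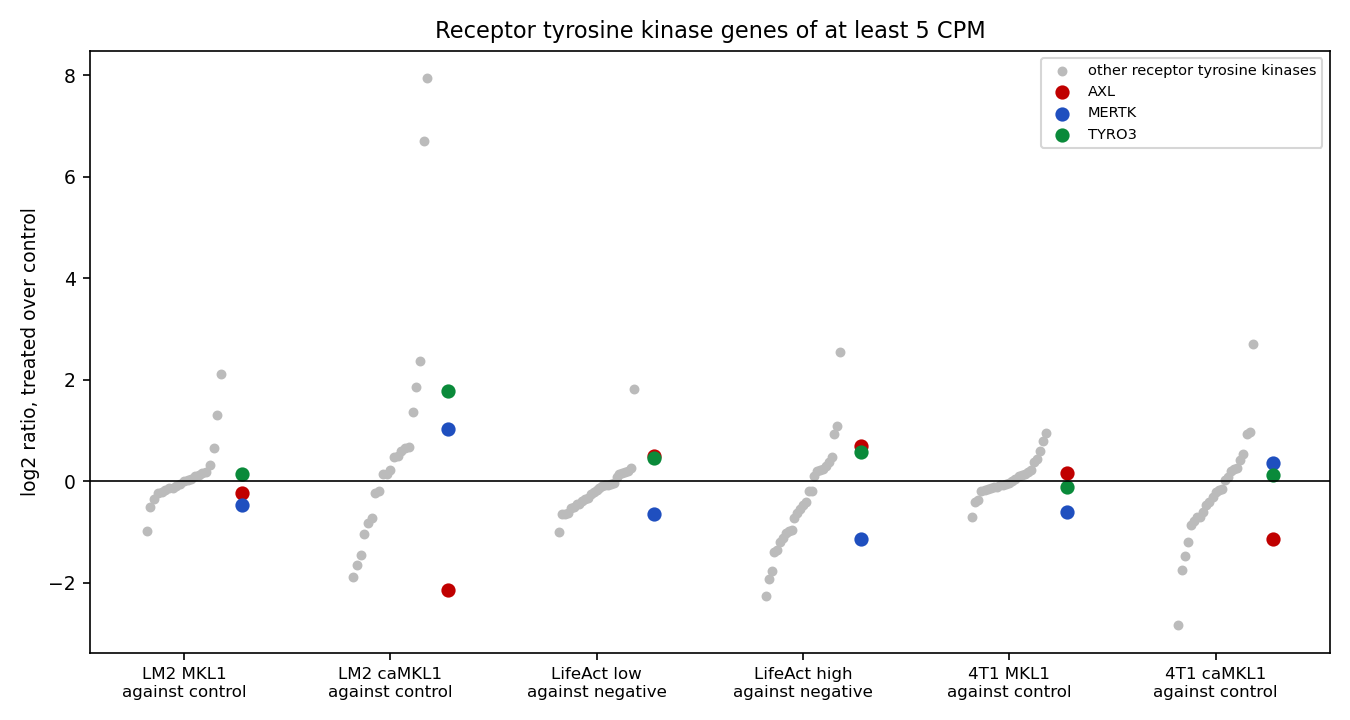
Log2 ratios (y axis) of receptor tyrosine kinase genes averaging at least 5 CPM over an experiment, in 6 comparisons (x axis), with AXL, MERTK and TYRO3 in colour and the others in grey, ordered by value. AXL is the lowest point of 24 in LM2 caMKL1 and the 5th lowest of 28 in 4T1 caMKL1.

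The other genes of the pathway were read from lists, by the number called and by their median log2 ratio. The median of all genes ran from -0.05 to 0.01 over the 6 comparisons with control or negative. A count whose share of the list is near the share of all genes called is not a result about that list, and nothing is read from the counts in LM2 caMKL1. For 4T1 MKL1 the share of all genes, 34.3%, is of both directions together. It is made up of 3144 genes higher and 2449 lower of 16297, so the share of each direction is smaller. Receptor shedding genes, which include the proteases ADAM10 and ADAM17 that cut AXL and MERTK from the surface and their regulators, were mostly lower with LifeAct and with caMKL1 in 4T1. In LifeAct low 6 of 6 were lower, against 23.6% of all genes (median -0.46, against -0.01), and in high 5 were lower and 1 higher, against 35.2% and 36.0% (median -0.74, against -0.03). TIMP3, an inhibitor of such proteases, fell from 886 to 548 and 419 CPM, and RHBDF2, which carries ADAM17 to the surface, from 144 to 90.2 and 44.3 CPM. In 4T1 caMKL1 5 of 5 tested were lower, against 35.8% (median -0.68, against -0.02), with Adam17 falling from 164.5 to 73.2 CPM. The medians in LM2 were -0.04 with MKL1 and -0.86 with caMKL1. In 4T1 MKL1 3 of 5 were lower and 0 higher, against 34.3% of all genes in either direction. In LM2 MKL1 1 of 6 was higher (TIMP3, 219 to 326 CPM) and 0 lower, against 7.25% and 4.74%. Without replicate 1 of MKL1 and caMKL1 the counts were 1 and 1. In LM2 caMKL1 2 were higher and 4 lower, against 31.9% and 33.0%. ADAM10, among the lower, was at 281 CPM in control and 165 with caMKL1. Scaling by library totals left the counts in LifeAct low and both 4T1 comparisons as they were, while the 1 higher gene in LifeAct high was no longer called. In LM2 that scaling gave 1 higher and 1 lower with MKL1 and 1 and 4 with caMKL1.

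LGALS3, which encodes galectin-3, a reported MERTK ligand, had the smallest p with MKL1 in both lines in the list of ligand maturation genes and other ligands. It rose from 56.5 to 89.96 CPM with MKL1 in LM2 and was at 347 CPM with caMKL1. Mouse Lgals3 rose from 84.7 to 136.5 CPM with MKL1 and to 197 with caMKL1. In LifeAct LGALS3 fell from 139 to 98.7 CPM in low and 111 in high. VKORC1L1, a vitamin K epoxide reductase gene, rose there from 38.1 to 53.98 and 62.0 CPM (edgeR adjusted p = 6.6e-08 and 2.6e-11). VKORC1, of the same list, fell there from 19.55 to 15.03 and 12.94 CPM (edgeR adjusted p = 0.00301 and 1.4e-05). GGCX, the carboxylase that matures GAS6 and protein S, was at 44.1 CPM in LM2 control and 73.8 with caMKL1, and at 77.5 and 72.6 CPM in LifeAct negative and high (adjusted p = 0.116). Of this list 2 of 4 tested genes were higher and 0 lower in LM2 MKL1, against 7.25% and 4.74% of all genes. In LM2 caMKL1 4 of 4 were higher, against 31.9%. Each LifeAct comparison had 1 higher and 2 lower of 5, against 26.0% and 23.6% in low and 36.0% and 35.2% in high. In 4T1, 1 of 5 was higher and 0 lower with MKL1, against 34.3% in either direction. With caMKL1 2 were higher and 2 lower, against 36.2% and 35.8%. List medians ran from -0.31 in LifeAct low to 0.68 in LM2 caMKL1. Without both LM2 replicates 1, 1 was higher in LM2 MKL1. With library totals the LM2 counts were 1 and 2 higher, and 3 were lower in LifeAct high.

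Genes of TAM receptor signalling, such as the PI3 kinase and SRC genes, were called in both directions. In LM2 MKL1 1 of 24 was higher and 3 lower, against 7.25% and 4.74% of all genes, or 0 and 3 with library totals. In LM2 caMKL1 9 were higher and 10 lower, against 31.9% and 33.0%, or 6 and 15 with library totals. SRC, a kinase gene, fell from 21.2 to 14.6 CPM with MKL1 and was at 7.195 with caMKL1. LifeAct low had 7 higher and 8 lower of 25, against 26.0% and 23.6%, and high had 8 higher and 12 lower, against 36.0% and 35.2%. PLCG1, a phospholipase gene, fell from 220 to 112 CPM in high, and PTPN11, a phosphatase gene, rose from 261 to 482 CPM. In 4T1 MKL1 8 were higher and 1 lower, against 34.3% in either direction, a split that became 5 and 7 with library totals. In 4T1 caMKL1 9 were higher and 12 lower, against 36.2% and 35.8%, or 5 and 17 with library totals, with Nck2 rising from 72.2 to 219 CPM. List medians ran from -0.11 in LifeAct high to 0.07 in 4T1 MKL1. Leaving out replicate 1 of MKL1 and caMKL1 in LM2 gave 1 higher and 5 lower with MKL1.

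Among phosphatidylserine exposure and uptake genes, ITGB3 had the smallest p with MKL1 in both lines. It encodes the beta chain of the vitronectin receptor. ITGB3 was at 7.25 CPM in LM2 control, 19.2 with MKL1 (edgeR adjusted p = 9.2e-07) and 38.2 with caMKL1. Mouse Itgb3 rose from 24.8 to 58.9 with MKL1 (adjusted p = 4.6e-16) and to 127 CPM with caMKL1 (adjusted p = 3.5e-23). The list had 2 higher and 2 lower of 21 in LM2 MKL1, against 7.25% and 4.74% of all genes, and 9 and 9 in LM2 caMKL1, against 31.9% and 33.0%. It had 9 and 5 of 21 in 4T1 MKL1, against 34.3% in either direction, and 9 and 12 in 4T1 caMKL1, against 36.2% and 35.8%. With library totals 4T1 MKL1 gave 6 higher and 8 lower, and without both LM2 replicates 1 LM2 MKL1 gave 2 and 5. In LifeAct low 5 were higher and 12 lower of 23, against 26.0% and 23.6%, and in high 7 and 13, against 36.0% and 35.2%. The medians ran from -0.26 in LifeAct high to 0.11 in LM2 caMKL1. ITGB5, another integrin beta chain gene, fell in LifeAct from 389 to 205 and 121 CPM.

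Reported regulators of AXL transcription were read as a list of 22 genes, of which 21 were tested in each experiment. In 4T1 11 were higher and 2 lower with MKL1, against 34.3% of all genes in either direction, and 14 were higher and 6 lower with caMKL1, against 36.2% and 35.8%. Fosl2, an AP-1 subunit gene, rose there from 89.9 to 169 and 412 CPM. In LM2 6 were higher and 1 lower with MKL1, against 7.25% and 4.74%, with SNAI2 rising from 18.9 to 42.8 CPM, and 11 were higher and 6 lower with caMKL1, against 31.9% and 33.0%. Medians ran from -0.18 in LifeAct low to 0.39 in 4T1 caMKL1. With library totals the splits with caMKL1 were 12 and 7 in 4T1 and 8 and 8 in LM2, and with MKL1 9 and 6 in 4T1 and 5 and 2 in LM2. LifeAct low had 5 higher and 13 lower, against 26.0% and 23.6%, and high had 9 and 10, against 36.0% and 35.2%. WWTR1, which encodes the YAP partner TAZ, fell from 231 to 147 and 96.5 CPM, and FOSL1 rose from 133 to 342 CPM in high.

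The other receptor tyrosine kinases had 4 higher and 8 lower of 39 tested in LM2 MKL1, against 7.25% and 4.74% of all genes (2 and 11 without both replicates 1, 2 and 8 with library totals). In LM2 caMKL1 14 were higher and 16 lower, against 31.9% and 33.0% (8 and 21 with library totals). They had 6 higher and 18 lower of 38 in LifeAct low, against 26.0% and 23.6%, and 14 and 20 in high, against 36.0% and 35.2%. In 4T1 10 were higher and 6 lower of 31 with MKL1, against 34.3% in either direction (6 and 12 with library totals), and 7 and 18 with caMKL1, against 36.2% and 35.8%. Their medians ran from -0.41 in LifeAct high to -0.07 in 4T1 MKL1. ERBB3, a neuregulin receptor gene, fell from 11.4 to 5.79 CPM with MKL1 in LM2. STYK1, a receptor-like kinase gene, rose from 2.30 to 8.13 and 13.5 CPM in LifeAct low and high. It reached an average of 5 CPM through those 2 groups alone. Fgfr3 rose from 8.89 to 57.7 CPM with caMKL1 in 4T1.

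The genes with the pattern nearest to AXL were found by the root mean square difference of log2 ratios over the 6 comparisons with control or negative, among 7890 symbols of at least 5 CPM in each experiment. They were EARS2 (0.193), a mitochondrial tRNA synthetase gene, INCENP (0.237), a chromosomal passenger gene, KNTC1 (0.251), a kinetochore gene, MCM7 (0.263), a replication helicase gene, and DUT (0.270), a dUTPase gene. EARS2 had log2 ratios of -2.00 in LM2 caMKL1, -1.32 in 4T1 caMKL1, 0.30 in LifeAct low and 0.55 in high. All 5 differed from AXL in sign in 4T1 MKL1, where AXL stood at 0.17 and the 5 at -0.14 to -0.25. KNTC1, MCM7 and DUT, at 0.08, 0.15 and 0.15, also differed in sign from AXL (-0.23) in LM2 MKL1. The same 5 genes led in the same order with library totals. The comparisons share control libraries in pairs, and 1 of the 6 was used to choose AXL.

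**Figure D5:**
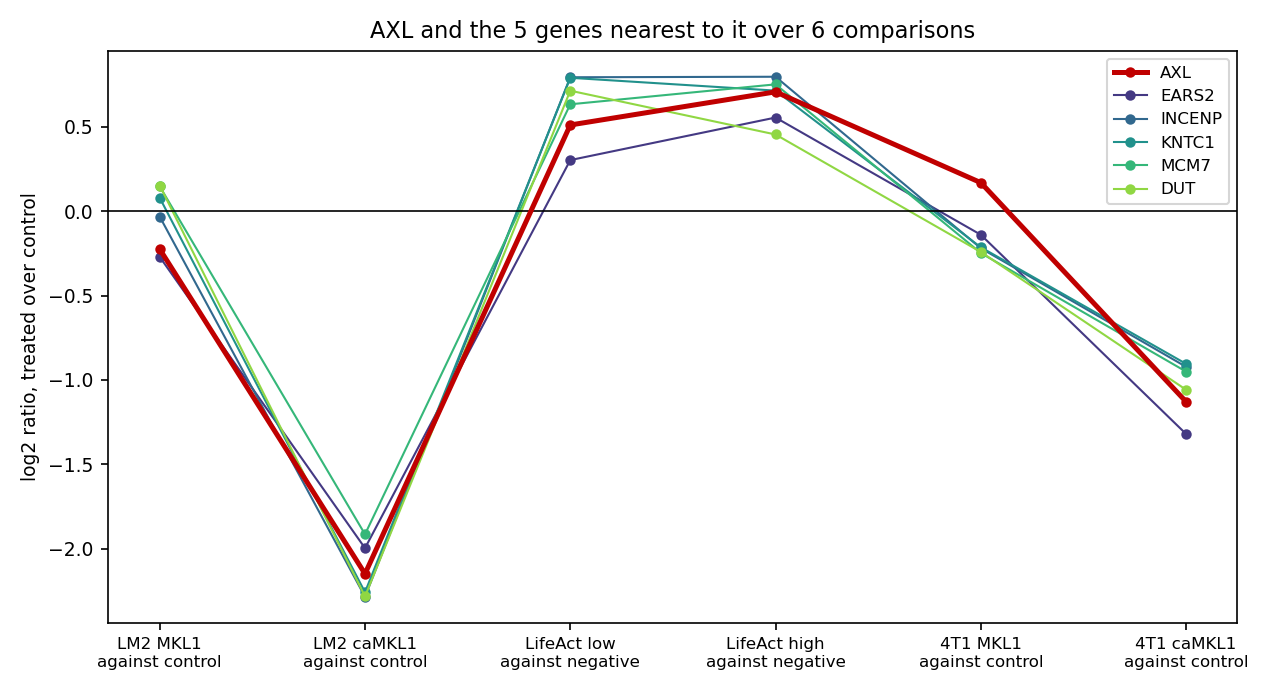
Log2 ratios (y axis) of AXL, in red, and the 5 genes nearest to it over the 6 comparisons with control or negative (x axis), with lines joining the values of a gene. All 6 genes are below 0 in both caMKL1 comparisons (AXL at -2.15 and -1.13) and above 0 in both LifeAct comparisons.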

How the data were processed

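Reads of 150 bp pairs came from 27 TRIzol RNA samples, per the labels' protocols. The deposited tables hold raw counts per gene name, which the authors made with featureCounts 2.0.1 over exons on STAR alignments to GRCh38 or GRCm38, per the file headers. The STAR version was not given in the sources used here, and no strand option was set. Every column matched a sample (0 unmatched).

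Genes passing edgeR's filter (minimum count 10, by group; 18893 in LM2, 21869 in LifeAct, 16297 in 4T1) went into the quasi-likelihood test of edgeR 4.0.16 (R 4.3.3). The 9 libraries of an experiment were fitted together with TMM scaling, and p-values were adjusted by Benjamini-Hochberg over all tested genes, threshold 0.05. Log2 ratios use a prior count of 0.125. TPM were computed from the counts and the deposited exon lengths. The fit was tested on simulated data. Its first criterion, on all changed genes, failed because many of those under 5 CPM were missed, and the criterion was then set on genes from 5 CPM up. Alternatives were DESeq2 1.42.0, limma voom 3.58.1, other scalings, no filter, 2 groups only, the replicate number as a block, and leaving out libraries. List counts without replicate 1 of LM2 MKL1 and caMKL1 were added after seeing the data, as was leaving out libraries other than LM2 MKL1 replicate 1 in the test between lines.

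Members and lists were chosen with earlier results of these data known. Named list genes are up to 4 per list and comparison with the smallest p, of at least 5 CPM on average, plus the 5 genes nearest to AXL. CDH1, CDH5, KDR, VWF, PTPRC, TYROBP, CD14, ADGRE1, ITGAM, MRC1, CD163 and the RTK genes given by rank or level were named after their values were seen. Mouse genes were matched to human ones by symbol. One gene of the signalling list that this rule names is not reported here.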

Additional observations from a re-analysis of the deposited data

Results flagged for a closer look

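The response of AXL to MKL1 differed between the lines by 0.3694 on the log2 scale (4T1 minus LM2), by a test of the difference itself. That test shares the LM2 control libraries by which AXL was chosen. AXL stood at -0.23 in LM2 and 0.17 in 4T1. Left out 1 at a time, 8 of 12 libraries ended the call (0.28 to 0.48 over the 12, edgeR adjusted p from 0.00516 to 0.0969), among them LM2 MKL1 replicate 1 (0.28, adjusted p = 0.0582).

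PROS1 went opposite ways with caMKL1 in the 2 lines, with every LM2 caMKL1 library above control in TMM-scaled CPM (log2 ratio 0.4548) and every 4T1 library below it (-1.165). This difference was not tested. The LM2 ratio was 0.04 when libraries were scaled by their totals. On the TPM scale PROS1 was lower with caMKL1 in both lines, at means of 34.9 in control and 31.4 with caMKL1 in LM2.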

How the results depend on the processing

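No member's log2 ratio reversed among those called, under any alternative run. Scaling by library totals moved the LM2 caMKL1 ratios to control to -2.55 for AXL, 0.62 for MERTK, 1.39 for TYRO3, -0.67 for GAS6 and 0.039 for PROS1, and that of AXL to MKL1 to -2.25. It ended the calls of PROS1 in LM2 caMKL1 against MKL1 (0.015), of MERTK in 4T1 caMKL1 against control (0.18) and of TYRO3 in 4T1 caMKL1 against MKL1 (0.13). That scaling moved the median ratio of all genes to -0.46 in LM2 caMKL1 against control, -0.38 against MKL1, -0.21 in 4T1 caMKL1 against control, -0.13 against MKL1 and -0.11 in LifeAct high against low. Genes called higher and lower went from 1369 and 896 to 918 and 1241 in LM2 MKL1, from 6030 and 6241 to 4137 and 9271 in LM2 caMKL1, from 3144 and 2449 to 2324 and 3868 in 4T1 MKL1, and from 5900 and 5841 to 4528 and 7580 in 4T1 caMKL1. Against MKL1 they went from 6150 and 6029 to 4425 and 8635 in LM2 and from 5505 and 5353 to 4534 and 6690 in 4T1, and in LifeAct high against low from 5828 and 5176 to 4655 and 6437. GAS6 in LM2 MKL1 passed with no filter on low counts (0.53, adjusted p = 2.1e-04). Leaving out 1 library at a time gave 0.21 to 0.62 for GAS6 in LM2 MKL1, 0.047 to 0.18 for TYRO3 in 4T1 caMKL1 and 0.28 to 0.48 for the AXL difference between lines, which lost its call in 8 of 12 such fits. The cause of these changes was not tested. Leave-one-out counts of called genes in LM2 MKL1 ran from 1118 to 2452 around 2265.

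With the replicate number as a block, GAS6 in LM2 MKL1 passed (0.45, adjusted p = 0.00742), and no other member's call changed. Called genes in LM2 MKL1 became 3258. The numbers were not taken as pairs, since same-numbered libraries correlated above 0.1 in 3 of 9 pairs in LM2, 0 of 9 in LifeAct and 3 of 9 in 4T1. Gas6 in 4T1 rests on 3 counts in all over 9 libraries, and MERTK there on 101 to 269 counts a library. The cause of the low Gas6 counts was not tested.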
